A study of Mus musculus with 2 samples.

Results

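The data describe 40 genes of the cell division cycle in the ID8 mouse model of ovarian cancer, 16 that act in S phase and 24 that act in G2 or mitosis, among the 33696 genes counted in each library. The genes were taken as a fixed list of names, and all 40 were found in the files. ID8 is a line of transformed ovarian surface epithelial cells that forms tumours in the peritoneum of mice. A chemoresistant group, labelled as treated with cisplatin, and a primary group, labelled treatment naïve, were each profiled as 1 droplet-based 3′ single-cell RNA library made from pooled solid tumours. The number of animals in a pool, the strain, age and cisplatin schedule are not given in the sources used here, and no untreated tumour of matched age and no cisplatin-sensitive tumour is labelled. With 1 library per group there is no test between the groups. Intervals below are exact 95% intervals of counting error alone. They take counts as independent, so an interval of a level leaves out the spread between cells. A span given with repeated draws is instead the lowest and highest ratio over those draws. None of these says anything of the spread between tumours.

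Before DNA is copied, the Mcm2 to Mcm7 helicase is loaded on chromatin by factors such as Cdc6, and at forks the clamp Pcna, its loader subunit Rfc2, and enzymes that supply deoxynucleotides, Rrm1, Rrm2, Tyms and Dut, are in use. These S-phase genes are classically driven by E2F factors. Genes of G2 and mitosis, such as the cyclins Ccnb1 and Ccnb2, the kinase Cdk1, the spindle kinesins and Mki67, the gene of the Ki-67 antigen, are silenced in resting cells by MuvB complexes bound at CHR elements and switched on later by B-MYB and FOXM1, with NF-Y at CCAAT boxes. Cisplatin crosslinks DNA, and damage of that kind is known to hold cells in S phase or G2.

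The promoters of 6 of the genes, chosen among those that hold a match, are printed to show what the motifs of these background pathways look like in place. The lists themselves were not made from promoter sequence. The CHR element was searched as TTTGAA and the E2F motif as GCGGGAA or GCGCGAA, with CCAAT, each on both strands, in the 250 bases before each RefSeq start site of mouse build GRCm38.p6. Promoters were matched for 14 S members with 15 start sites and for 19 G2/M members with 19 start sites. TTTGAA lay before 6 of the 19 G2/M start sites (31.6%), 1 of the 15 S start sites (6.67%) and 15.99% of all 32851 start sites. The E2F motif lay before 2 G2/M start sites (10.5%), 8 S start sites (53.3%) and 5.001% of all. The split is not clean: Mcm2, an S member, has TTTGAA, and the G2/M members Cdk1 and Hmmr have the E2F motif. CCAAT lay before 17 G2/M start sites (89.5%), 9 S start sites (60.0%) and 33.8% of all. A match is a description of letters and not of a bound site. Capitals mark the E2F motif in the first 3 promoters, TTTGAA in the last 3, and CCAAT in all, read on either strand, 5′ to 3′ toward the gene.
Rrm1 (chr7:102441575-102441694, plus strand): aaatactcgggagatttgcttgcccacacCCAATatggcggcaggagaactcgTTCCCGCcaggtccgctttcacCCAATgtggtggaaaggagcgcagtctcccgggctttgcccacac
Mcm6 (chr1:128359706-128359825, minus strand): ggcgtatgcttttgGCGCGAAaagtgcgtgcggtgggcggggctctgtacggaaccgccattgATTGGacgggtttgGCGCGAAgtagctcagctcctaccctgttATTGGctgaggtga
Mcm7 (chr5:138171884-138172058, minus strand): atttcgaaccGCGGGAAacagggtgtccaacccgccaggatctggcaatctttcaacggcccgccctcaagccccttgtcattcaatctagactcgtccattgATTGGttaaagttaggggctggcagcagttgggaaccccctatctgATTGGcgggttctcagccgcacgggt
Top2a (chr11:99024190-99024309, minus strand): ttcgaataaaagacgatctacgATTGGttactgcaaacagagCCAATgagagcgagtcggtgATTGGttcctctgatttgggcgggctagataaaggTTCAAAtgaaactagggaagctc
Ube2c (chr2:164769809-164769928, plus strand): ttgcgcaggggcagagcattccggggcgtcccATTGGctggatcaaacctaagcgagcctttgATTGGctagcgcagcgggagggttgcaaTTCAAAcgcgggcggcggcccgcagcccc
Mki67 (chr7:135716380-135716499, minus strand): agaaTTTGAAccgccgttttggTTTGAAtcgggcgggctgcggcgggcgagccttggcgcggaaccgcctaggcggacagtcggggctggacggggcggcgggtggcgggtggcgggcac

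Rrm1, Mcm6 and Mcm7 are S members and Top2a, Ube2c and Mki67 are G2/M members. The Mki67 stretch holds TTTGAA at 2 places and no CCAAT within the printed bases, whereas the Top2a stretch holds TTTGAA once, next to 3 CCAAT matches.

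The chemoresistant library held 16390 barcodes and 158118781 transcript counts (unique molecular identifiers, UMIs), and the primary library 14390 barcodes and 141334623 UMIs, with 52 barcode sequences in common. After filtering and removal of called doublets, 12953 chemoresistant cells at a median of 4096 UMIs and 11348 primary cells at a median of 5392.5 UMIs remained. Each cell was placed in the class whose list of 10 markers it expressed best, out of 9 lists, and cells with mixed or few markers were set aside (1844 and 1121 chemoresistant cells, 2167 and 557 primary cells). The tumour class, set by keratins, Wt1, Msln and other epithelial markers that host mesothelium also expresses, held 2176 chemoresistant and 301 primary cells, and its cells expressed a median of 7 and 6 of its 10 markers. The class therefore names a marker pattern, and tumour cells and mesothelium cannot be told apart in it.

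A cell was called from 2000 UMIs drawn at random, so that depth was equal. It was G2/M-positive with 3 or more UMIs of the 24 G2/M members. It was S-only with 3 or more UMIs of the 16 S members and fewer than 3 of the G2/M members. Cells with fewer than 2000 UMIs were not called (92 of 2176 chemoresistant and 14 of 301 primary tumour-class cells). Both kinds together are referred to as cycling, a name for the count and not a measured phase. Over all kept cells, 877 of 8770 chemoresistant cells (10.0%) and 1014 of 10101 primary cells (10.0%) were cycling, and G2/M-positive cells made up 61.7% and 69.8% of them.

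In the tumour class a smaller share of cells was cycling in the chemoresistant library. Cycling cells were 210 of 2084 (10.1%, 8.82 to 11.4%) in the chemoresistant library and 42 of 287 (14.6%, 10.8 to 19.3%) in the primary library, a ratio of 0.69 (0.49 to 0.98). That interval holds for the draw reported alone. The G2/M-positive share was 4.99% in the chemoresistant and 7.67% in the primary library (ratio 0.65, 0.41 to 1.08), and the S-only share was 5.09% and 6.97% (ratio 0.73, 0.45 to 1.24), so that neither phase alone differed beyond counting error. The balance of the calls was close. G2/M-positive cells were 49.5% (42.6 to 56.5%) of the cycling chemoresistant cells and 52.4% (36.4 to 68.0%) of the cycling primary cells. Tumour-class cells with no drawn UMI of either list also held S members, at levels given below. How many S-only calls come from such a background was not tested. The cycling share and this balance are therefore not counts of cells in S phase. Averaged over all possible draws, the cycling share was 10.4% in the chemoresistant and 13.4% in the primary library, a ratio of 0.78. No interval was set on this mean, so a difference beyond counting error is not shown for it. The ratio was below 1 under every alternative tried that changes which cells are kept or called, at its closest 10.4% against 11.8% with another random draw and 6.60% against 7.57% with 5000 UMIs and a call at 8. Without thinning, 78.5% of chemoresistant and 82.4% of primary tumour-class cells pass the call, since these cells are deep (medians of 18158.5 and 22150.0 UMIs). Many calls lie at the limit: 72 of the 106 chemoresistant and 15 of the 20 primary S-only cells held exactly 3 S UMIs, and 241 and 31 cells held 2.

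Outside the tumour class the order of the libraries differed by class. Cycling mononuclear phagocytes were 316 of 3430 (9.21%) in the chemoresistant and 221 of 2660 (8.31%) in the primary library (ratio 1.11, 0.93 to 1.32). Cycling T and NK cells were 24 of 106 (22.6%) and 110 of 868 (12.7%), a ratio of 1.79 (1.10 to 2.80). Averaged over all possible draws, the T and NK shares were 19.5% in the chemoresistant and 12.4% in the primary library, a ratio of 1.57 without an interval. With another random draw they were 17.0% and 11.8%. In the T and NK class 139 of 245 chemoresistant and 47 of 915 primary cells were too shallow to be called, and at 1000 UMIs the shares were 6.02% and 3.84%. For fibroblasts the counts were 25 of 237 (10.5%) in the chemoresistant and 8 of 166 (4.82%) in the primary library (2.19, 0.96 to 5.61), and for dendritic cells 7 of 202 (3.47%) and 10 of 219 (4.57%). The fibroblast class expressed a median of 6 fibroblast and 2 tumour markers in the chemoresistant library, and 9 and 1 in the primary library. Whether it holds the same kind of cell in both was not tested. Endothelial and intestinal cells were too few to compare, with 4 and 1 cells in the chemoresistant library.

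**Figure D1:**
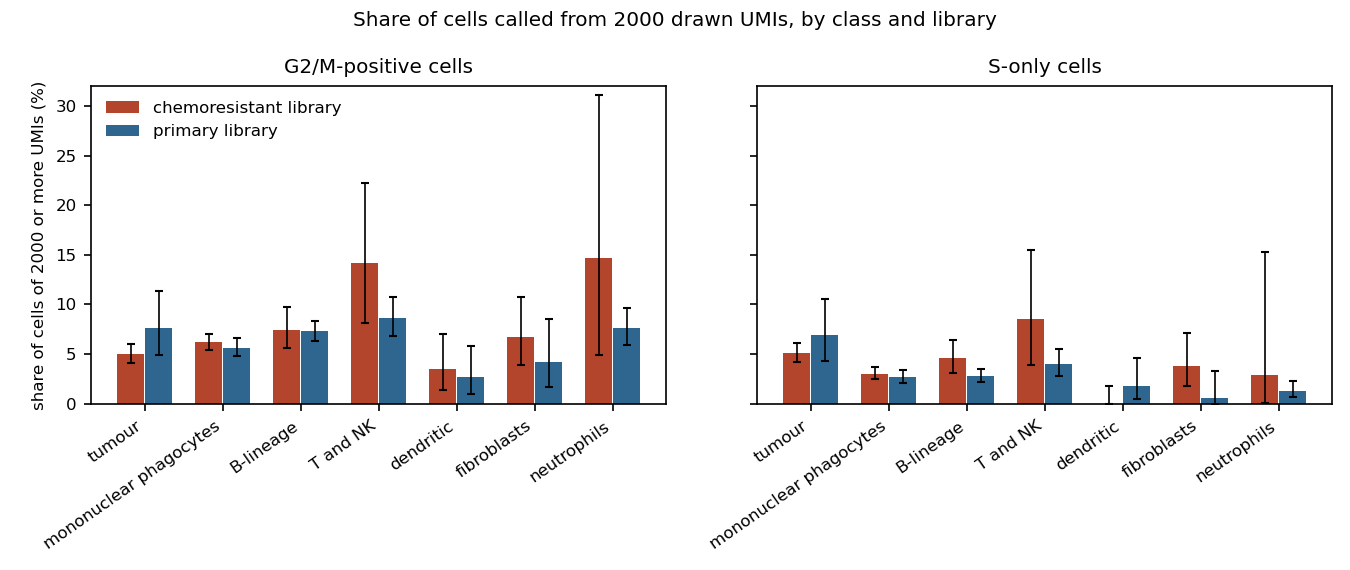
Share of cells (%, y axis) that were G2/M-positive (left panel) or S-only (right panel), among cells of at least 2000 UMIs, by class (x axis), with the chemoresistant library left of the primary library in each pair; bars are shares and whiskers exact 95% intervals of counting error. In the tumour class both shares are lower in the chemoresistant library (4.99% against 7.67% G2/M-positive, 5.09% against 6.97% S-only), and in T and NK cells both are higher (14.2% against 8.64%, 8.49% against 4.03%), with whiskers that overlap.

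Some G2/M members, Cks2, Smc4 and Kif23 among them, were also counted in classes with few dividing cells. Mature neutrophils are known to have left the cycle, and the class named by their markers passed the call in 6 of 34 chemoresistant and 76 of 850 primary cells (17.6% and 8.94%, at median depths of 3371.5 and 2705.0 UMIs). Cks2, a small Cdk-binding protein, was at 227 CPM (UMIs of the gene per 1000000 UMIs) in chemoresistant and 206 CPM in primary neutrophils, and was the highest G2/M member there in both libraries. Smc4, a condensin subunit, was at 173 and 258 CPM in T and NK cells. Kif23, a kinesin of the central spindle, was at 51.9 and 38.6 CPM in neutrophils. With these 3 genes left out, G2/M-positive neutrophils were 4 of 34 chemoresistant and 11 of 850 primary cells (11.8% and 1.29%), and G2/M-positive T and NK cells 9 of 106 and 17 of 868 (8.49% and 1.96%). The primary T and NK share is then near that of primary neutrophils. The chemoresistant neutrophil class kept its share, with Ccnb2, Birc5 and Ube2c each found among the drawn UMIs of 3 of the 34 cells, so in that library it is no measure of background. The tumour class moved little: 4.61% of chemoresistant and 6.97% of primary cells were G2/M-positive without the 3 genes.

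For B-lineage cells the share depended on depth. At 2000 UMIs 79 of 656 chemoresistant cells (12.0%) and 280 of 2772 primary cells (10.1%) were cycling, but 1922 of the 2578 chemoresistant B-lineage cells were too shallow to enter, against 89 of the 2861 primary ones. At 1000 UMIs, where 2205 chemoresistant and 2850 primary cells entered, the shares were 1.95% and 5.93%. The median depth of the class was 1531 UMIs in the chemoresistant and 4368 UMIs in the primary library. No direction can be read for this class from the share.

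Levels of the members were then summed over all tumour-class cells. A member was counted as higher or lower when it differed by at least 1.5-fold and reached 10 CPM in at least 1 library. The 3′ assay counts a transcript at its end, so CPM were not divided by length. Of the 9210 genes over that minimum, 14.4% were lower and 6.13% higher in the chemoresistant tumour class. Against this background 1 of the 11 S members over the minimum and 5 of the 16 G2/M members over it were lower, and none was higher. The summed S members stood at 414.5 CPM in the chemoresistant and 473.9 CPM in the primary library (ratio 0.87), and the summed G2/M members at 431 and 551 CPM (0.78). On the log2 scale the median ratio was -0.13 for S members and -0.35 for G2/M members, against -0.14 for all genes.

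The members that were lower act in several steps of division. Ccnb2, a mitotic cyclin, was at 10.4 CPM in the chemoresistant and 24.6 CPM in the primary tumour class (ratio 0.42, 0.36 to 0.50). Cenpf, a kinetochore protein made in G2, was at 24.1 and 44.9 CPM (0.54, 0.48 to 0.61). Mki67 was at 13.8 and 25.2 CPM (0.55, 0.47 to 0.64). The intervals of these 3 exclude a ratio of 1, but they take UMIs as independent and leave out the spread between cells. Together with Ccna2, Hmmr and Rrm1 these 3 make up all members lower past the limit. Ccna2, the cyclin of S phase and G2, was at 6.25 and 10.3 CPM (0.61) and reached the minimum in the primary library only. Hmmr, a microtubule-binding spindle protein, was at 14.5 and 21.9 CPM (0.66). Rrm1, the large subunit of ribonucleotide reductase, was at 79.8 CPM in the chemoresistant and 127.5 CPM in the primary class (0.63, 0.58 to 0.67), the lowest ratio among the S members over the minimum.

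Other members of the same steps hardly differed. The motor Kif11 was at 11.1 CPM in both libraries (ratio 1.00), Cks2 at 52.5 and 51.3 CPM (1.02), and Birc5, or survivin, at 42.2 and 44.3 CPM (0.95). Among S members, Mcm7 was at 30.4 CPM in the chemoresistant and 30.8 CPM in the primary class (0.99), Tipin, a fork-protection protein, at 22.6 and 22.1 CPM (1.02), and Rfc2 at 30.7 and 33.0 CPM (0.93). The count of lower members turned on settings: it was 18 with the class set by the longest marker list alone, which admitted 2890 chemoresistant and 716 primary cells, and 2 after centring each gene on genes of like transcript length. In all, 5 S members (Mcm2, Mcm5, Rrm2, Cdc6, Ccne1) and 8 G2/M members (Ccnb1, Kif23, Kif20a, Aurka, Aurkb, Plk1, Bub1, Bub1b) stayed under 10 CPM in both libraries. Among these the licensing factor Cdc6 was at 4.55 CPM in the chemoresistant and 2.25 CPM in the primary class (2.02, 1.26 to 3.42, from 219 and 19 UMIs), and the kinesin Kif20a at 3.28 and 7.58 CPM (0.43, 0.32 to 0.59).

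**Figure D2:**
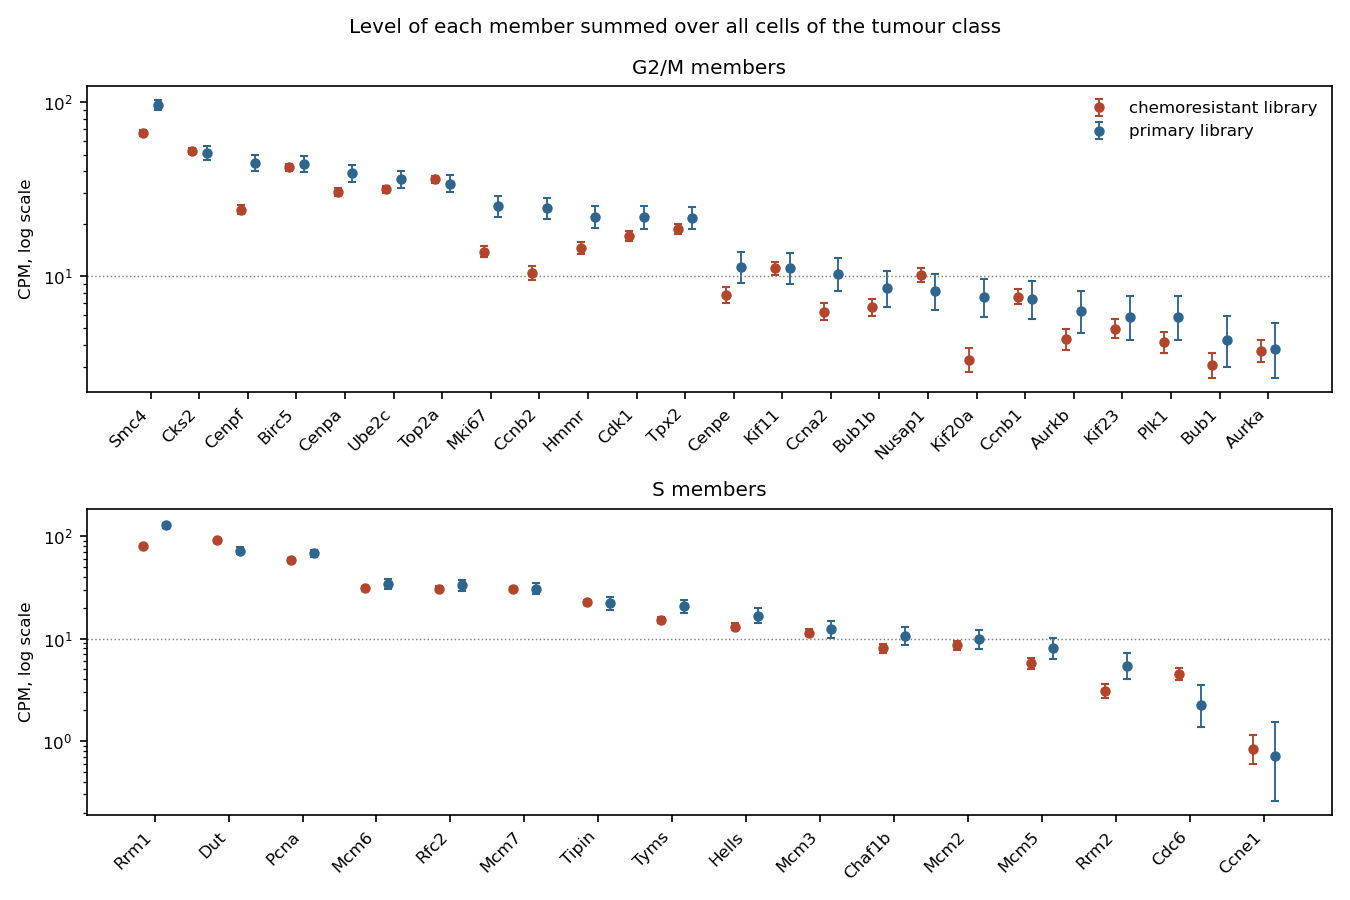
Level of each S member and each G2/M member (x axis) in CPM on a log scale (y axis), summed over all tumour-class cells, chemoresistant left of primary; whiskers are exact 95% intervals of counting error and the dotted line is 10 CPM. Ccnb2 (10.4 against 24.6 CPM), Cenpf (24.1 against 44.9 CPM) and Mki67 (13.8 against 25.2 CPM) stand apart, and Kif11 and Mcm7 nearly coincide.

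The members differ in how far their transcripts come from cycling cells at all. This was measured on the UMIs that were not drawn for the call, of which cycling cells held 11.3% in the chemoresistant and 12.1% in the primary tumour class. For Plk1, a mitotic kinase, 94.7% of its UMIs in the chemoresistant and 100% in the primary library lay in cycling cells. Hmmr (92.5% and 95.7%), Ube2c, the ubiquitin-conjugating enzyme of the anaphase-promoting complex (92.2% and 93.4%), Cenpf (91.3% and 95.2%), Top2a, topoisomerase II alpha (91.3% and 90.4%), and Mki67 (90.3% and 84.5%) were close behind. Among G2/M members, 3 were spread more widely: the checkpoint kinase Bub1b (55.1% and 49.3%), Cks2 (50.6% and 57.9%) and Smc4 (29.9% and 25.4%). Most S members were less tied to the call, and they ran between Rrm2, the small reductase subunit (74.2% and 80.0%), and Rrm1 (20.7% and 17.7%). Cells with no UMI of either list among those drawn still held 310 CPM of S members in the chemoresistant and 333 CPM in the primary class, against 112 and 135 CPM of G2/M members. A class-wide level of Rrm1, Rfc2 or Smc4 is thus mostly a level in cells outside the call, whereas that of Plk1 or Hmmr is nearly all from cells inside it. Among S-only cells with 2000 UMIs left, the median of undrawn S members was 641 CPM in 98 chemoresistant cells. It was 459 CPM in 15 primary cells. The lower and upper quartiles were 339 and 1568 CPM in the chemoresistant library, and 399 and 586 CPM in the primary library. The part of background in the S-only calls was not tested.

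**Figure D3:**
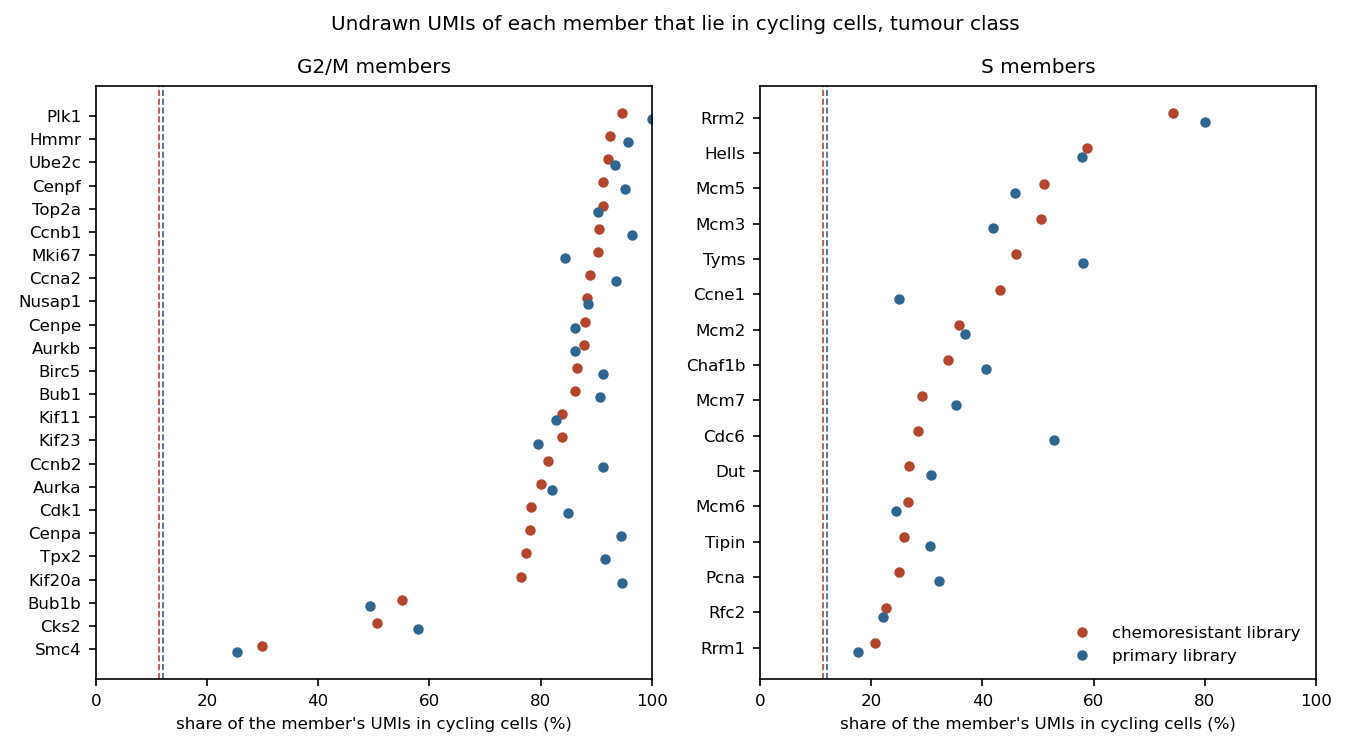
Share of each member's undrawn UMIs that lie in cycling cells (x axis, %), by member (y axis) and library, in the tumour class. Most G2/M members lie above 75%, with Bub1b, Cks2 and Smc4 below 60%, and Rrm1 and Rfc2 are the lowest S members.

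The 2 kinds of cycling cell separated G2/M members far more than S members. Averaged over 50 repeats of the draw, Plk1 was at 60.9 CPM in G2/M-positive and 0.83 CPM in S-only chemoresistant tumour cells, Cenpf at 349 and 5.80 CPM, Ube2c at 448 and 8.61 CPM, and Ccnb1 at 105 and 2.12 CPM. The S-only levels are near 0, so the size of these ratios is uncertain. The levels were nearest to each other among G2/M members for Smc4 (254 and 70.2 CPM) and Cks2 (385 and 60.99 CPM). The histone chaperone subunit Chaf1b was at 23.5 and 25.9 CPM and Rrm2 at 30.1 and 12.99 CPM. The summed S members averaged 1138 CPM in G2/M-positive and 947 CPM in S-only chemoresistant cells, and 1482 and 696 CPM in the few primary cells. Of the G2/M-positive cells, 36 of 104 chemoresistant and 9 of 22 primary cells also passed the S limit. Only UMIs outside the draw enter these levels, but the lists that made the call are the same ones measured. The direction for G2/M members, and their wider separation than that of S members, thus follow from the call.

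Within G2/M-positive tumour cells (104 chemoresistant, 22 primary) the summed G2/M members were at 5343 CPM in the chemoresistant and 4726 CPM in the primary library, a ratio of 1.13. Of genes over the minimum there, 17.5% were higher and 20.5% lower, and all 24 G2/M members were over it, with 5 higher and 2 lower. The higher ones were Nusap1, a spindle microtubule protein (153 and 79.8 CPM, ratio 1.91), Top2a (554 and 346 CPM, 1.60), the kinase Aurka (53.8 and 34.01 CPM, 1.58), Ccnb1 (125 and 79.8 CPM, 1.57) and Kif11 (158 and 105 CPM, 1.502). The lower ones were Ccnb2 (142 and 263 CPM, 0.54, 0.45 to 0.65) and Kif20a (44.2 and 78.4 CPM, 0.56, 0.40 to 0.80). Nearest to no change were Cdk1 (1.02), the kinase Aurkb (0.97) and Hmmr (1.04).

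The higher calls did not outlast the choice of drawn UMIs. When the draw was repeated 50 times, the summed G2/M members averaged 4708 CPM in the chemoresistant and 5402 CPM in the primary library (0.87), with single draws between 0.69 and 1.17 and 43 of the 50 lower, and no member averaged 1.5-fold higher. The draws take UMIs from the same cells, so their agreement covers the choice of UMIs and not the spread between cells. Ccnb2 (mean ratio 0.46, range 0.40 to 0.63), Kif20a (0.44, 0.34 to 0.65) and Cenpf (0.61, 0.48 to 0.86) were lower in all 50 draws. Mki67 averaged 0.68 and Ccna2 0.67 within these cells, also lower in all 50 draws. The summed S members in the same cells averaged 1138 CPM in the chemoresistant and 1482 CPM in the primary library (0.77), and were lower in 49 of the 50 draws. In the draw reported, 6 of the 15 S members over the minimum were lower there and none higher, where 20.5% of genes were lower and 17.5% higher. By the mean of the draws 4 were lower. Of these, the clamp Pcna averaged 0.60 and Chaf1b 0.54, each lower in all 50 draws.

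S-only tumour cells gave too little to compare. The 20 primary cells held 147 S-member UMIs outside the draw, and Rrm2 and Cdc6 had none. The summed S members were at 983 CPM in the chemoresistant and 536 CPM in the primary cells, but over 50 draws the ratio ran from 0.49 to 2.37 with a mean of 1.36. Of all genes over the minimum there, 27.2% were higher and 23.9% lower, and 12 of the 16 S members were counted as higher in the draw reported. No direction is read from these cells.

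Macrophages and monocytes gave far more G2/M-positive cells, 212 in the chemoresistant and 150 in the primary library, 6.18% and 5.64% of the class, shares that did not differ beyond counting error (ratio 1.10, 0.89 to 1.36). Of genes over the minimum, 25.9% were lower and 8.48% higher in these cells, so 6 lower G2/M members of 24 are close to the background share. Mki67 was the lowest, at 267 CPM in chemoresistant and 639 CPM in primary cells (0.42, 0.37 to 0.47). Over 50 draws its ratio was 0.46 (0.42 to 0.51). Per cell, its median was 201 CPM in the chemoresistant and 542 CPM in the primary library, and the middle 50% of cells ran from 0 to 437 and from 242 to 874 CPM. The kinetochore motor Cenpe (135 and 257 CPM, 0.52), Kif23 (114 and 189 CPM, 0.60), Hmmr (102 and 168 CPM, 0.60), Cenpf (226 and 347 CPM, 0.65) and Smc4 (232 and 354 CPM, 0.66) were lower too. Birc5, a subunit of the chromosomal passenger complex, went the other way, at 492 CPM in chemoresistant and 297 CPM in primary cells (1.66, 1.48 to 1.86), with 1.77 (1.64 to 2.02) over the draws. The other 17 G2/M members lay between these limits, and summed G2/M members were at 4442 and 5302 CPM (0.84). In S-only mononuclear phagocytes (104 chemoresistant, 71 primary) 7 of the 16 S members were lower and none higher, where 34.5% of genes were lower and 11.6% higher, and the summed S members had a ratio of 0.81 (0.60 to 1.06) over the draws.

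Over the whole mononuclear phagocyte class the same 2 genes were the extremes. Mki67 was at 29.2 CPM in the chemoresistant and 60.5 CPM in the primary class (0.48), and Birc5 at 45.4 and 25.9 CPM (1.75), where 16.4% of genes were lower and 2.88% higher. Cenpe (0.58) and Cenpf (0.65) were the other lower G2/M members, and among S members Mcm2 (0.65), Mcm3 (0.65) and the chromatin remodeller Hells (0.62) were lower.

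In B-lineage cells the summed level of G2/M members was lower over the whole class. There summed G2/M members were at 482 CPM in the chemoresistant and 1081 CPM in the primary library (0.45), and 19 of the 22 G2/M members over the minimum and 7 of the 13 S members were lower, where 10.5% of genes were lower and 8.54% higher. Mki67 was at 25.8 and 127 CPM (0.20, 0.17 to 0.25). In such sums deep cells weigh more. G2/M-positive cells had a median depth of 4224 UMIs in the chemoresistant and 10554.5 UMIs in the primary library. The class as a whole had 1531 and 4368 UMIs. At 2000 drawn UMIs the G2/M-positive shares were close, 7.47% in the chemoresistant and 7.29% in the primary library. The part of depth in the lower sums was not tested. Within G2/M-positive cells (49 chemoresistant, 202 primary) the summed G2/M members were at 4534 and 5553 CPM (0.82), with 0.78 (0.69 to 0.87) over 50 draws. The per-cell median had the opposite order. Among cells with 2000 UMIs left, it was 4767 CPM in 26 chemoresistant and 4394 CPM in 174 primary cells. No direction is thus read for the summed level in these cells. By sums over all G2/M-positive cells, 7 of the 24 G2/M members were lower and none higher. There 29.4% of genes were lower and 17.7% higher, so the count of lower members is at the background share. Mki67 was at 362 CPM in chemoresistant and 727 CPM in primary cells (0.50, 0.38 to 0.64), and its ratio was 0.43 (0.37 to 0.50) over the draws. Its per-cell medians lay closer, at 388 CPM in the 26 chemoresistant and 532 CPM in the 174 primary cells with 2000 UMIs left. The passenger kinase Aurkb (0.44, 7 chemoresistant UMIs) and the checkpoint kinase Bub1 (0.39, 5 chemoresistant UMIs) had the lowest ratios but rest on few counts. Cenpe (0.54), Cenpf (0.63), Kif23 (0.66) and Smc4 (0.67) make up the rest. In S-only B-lineage cells (30 chemoresistant, 78 primary) 10 of the 16 S members were lower and 1 higher, where 36.6% of genes were lower and 30.4% higher. These rest on 94 chemoresistant S-member UMIs, and over 50 draws the summed ratio ran from 0.47 to 1.37, so no direction is read from them.

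Transcript length moved with these levels. Over all genes in G2/M-positive mononuclear phagocytes, the log2 ratio decreased with the length of the longest coding transcript (Spearman rho of -0.41 across 8629 genes, which are not independent), and genes of 6000 bases or more had a median of -0.52. The 24 G2/M members followed the same slope (rho of -0.65), Mki67 (10061 bases), Cenpe (7910 bases) and Cenpf (11130 bases) being the longest. Set against genes of like length, Cenpf stood 0.09 lower on the log2 scale, Cenpe 0.41 lower and Mki67 0.74 lower, and 4.11% of the genes of 6000 bases or more had a ratio as low as that of Mki67. Birc5 (3334 bases) stood 1.06 above genes of its length, where 96.5% had a ratio as low or lower. In B-lineage G2/M-positive cells the slope was weaker (rho of -0.22 over all genes), and Mki67 stood 0.65 below genes of like length, of which 17.8% had a ratio as low. In tumour G2/M-positive cells there was no such slope (rho of 0.07 over all genes and -0.07 over the members), although over the whole tumour class there was (-0.35 across 8907 genes). The median depth of the mononuclear phagocytes was 5185 UMIs in the chemoresistant and 10489 UMIs in the primary library, and the part of depth or RNA length in these ratios was not tested.

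**Figure D4:**
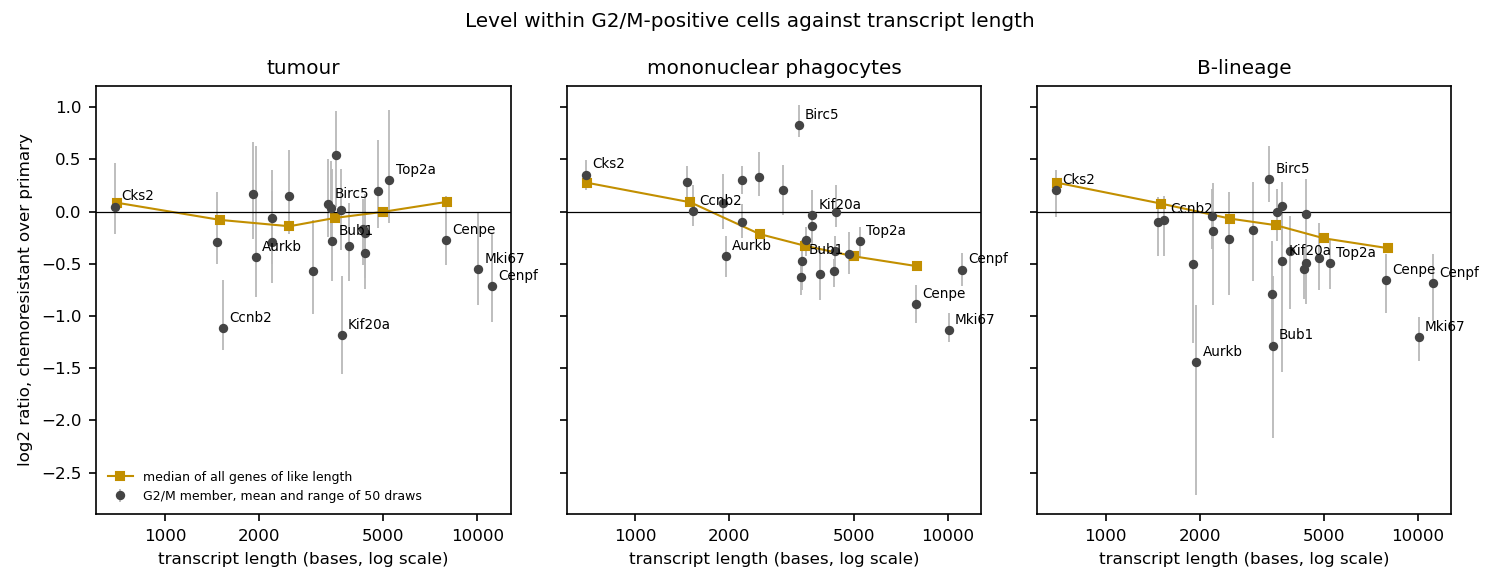
Log2 ratio of level, chemoresistant over primary (y axis), of the 24 G2/M members within G2/M-positive cells against transcript length in bases (x axis, log scale), 1 panel per class; points are means and whiskers ranges of 50 draws, and squares are medians of all genes of like length. In mononuclear phagocytes the long genes Mki67 and Cenpe lie low and Birc5 lies above the line, with means of -1.14, -0.89 and 0.83.

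Between classes the same members led. Smc4 was the highest G2/M member in the 6 classes other than neutrophils, at 53.0 to 173 CPM in the chemoresistant and 65.8 to 258 CPM in the primary library, and Cks2 was the highest in neutrophils. Mki67 was the next highest in the primary B-lineage cells (127 CPM), mononuclear phagocytes (60.5 CPM), fibroblasts (50.9 CPM) and dendritic cells (34.2 CPM), but in no chemoresistant class. Kif20a, Bub1 and Aurka were the lowest G2/M members in most classes, with Hmmr and Ccnb1 among the lowest in dendritic cells and fibroblasts of the primary library. Among S members Pcna or Dut led in all classes but the primary tumour class, where Rrm1 did at 127.5 CPM, and Cdc6, Ccne1, Chaf1b and, in the tumour class, Rrm2 were lowest. Pcna stood at 85.5 CPM in chemoresistant and 94.7 CPM in primary neutrophils, so its level alone does not mark cycling in these libraries.

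In the smaller classes G2/M members were more often higher in the chemoresistant library, but few G2/M-positive cells stand behind these counts. In T and NK cells 9 of the 20 G2/M members over the minimum were higher and none lower, where 15.6% of genes were higher and 20.2% lower. Birc5 (86.3 and 23.6 CPM, 3.65, 2.53 to 5.19) and the spindle factor Tpx2 (34.5 and 10.1 CPM, 3.43, from 18 and 49 UMIs) led these. In fibroblasts 6 of 17 were higher and 2 lower, where 14.9% of genes were higher and 35.4% lower, with Ube2c at 35.4 and 8.28 CPM (4.28) and Mki67 at 20.7 and 50.9 CPM (0.41, 0.29 to 0.55). In dendritic cells 7 of 13 were higher and 2 lower, where 8.47% and 35.3% of genes were. The neutrophil class also had 9 of 16 higher and 1 lower, where 14.6% of genes were higher and 19.7% lower. Among called cells, 15 chemoresistant and 75 primary T and NK cells and 16 and 7 fibroblasts were G2/M-positive. So were 7 and 6 dendritic cells and 5 and 65 neutrophils. The same few cells can raise many members together, so the members are not independent. The cycling share of dendritic cells had a ratio below 1 (0.76, 0.25 to 2.21). Birc5 was higher in the chemoresistant library in mononuclear phagocytes, T and NK cells, neutrophils, dendritic cells and fibroblasts, and lower in B-lineage cells (29.1 and 49.9 CPM, 0.58).

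A wider list of 76 cell cycle genes outside the 40 was read in the whole tumour class: of the 47 over the minimum, 8 were lower and 1 higher, and their median was -0.20 on the log2 scale, close to the 14.4% of all genes lower and the median of -0.14 given above. The G1 cyclins Ccnd1 (96.9 and 151 CPM, 0.64) and Ccnd2 (94.6 and 159 CPM, 0.59) were lower, and the phosphatase Cdc25a was at 8.91 and 11.5 CPM (0.78). Among CDK inhibitors none of the 4 over the minimum differed past the limit over the whole class. Cdkn1a, the p53 target p21, was at 182 CPM in the chemoresistant and 186 CPM in the primary class (0.98), Cdkn2c at 63.9 and 48.8 CPM (1.31), Cdkn2d at 18.9 and 15.3 CPM (1.24) and Cdkn1b at 62.4 and 73.5 CPM (0.85). Within G2/M-positive tumour cells, where 17.5% of all genes were higher and 20.5% lower, Cdkn1a was at 122 CPM in the chemoresistant and 70.97 CPM in the primary library (1.72, 1.27 to 2.39) and Cdkn2d at 85.4 and 44.4 CPM (1.92, 1.31 to 2.93), both higher. Cdkn1c, at 3.36 and 10.4 CPM from 8 and 7 UMIs, was lower, and Cdkn1b (1.09) and Cdkn2c (0.92) were not past the limit. The inhibitors do not stand out in the wider list there. Among its other genes, Cdk6 (2.01) and Cdc25b (2.23) were higher and Ccnd2 (0.37) and Slbp (0.48) lower, with more past the limit each way. All these levels within G2/M-positive cells come from a single draw and 22 primary cells, and were not repeated over draws. Of the regulators, the pocket protein Rbl2 was lower (21.2 and 38.1 CPM, 0.56), while E2f1 (12.3 and 8.88 CPM, 1.38) and the MuvB subunit Lin54 (8.72 and 11.5 CPM, 0.76) were not past the limit.

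The late activators were sparse: Foxm1 was at 3.18 and 3.67 CPM and Mybl2 at 1.29 and 2.37 CPM, both under the minimum. Among replication genes the DNA primase subunit Prim1 (5.59 and 10.4 CPM, 0.54) and the polymerase alpha subunit Pola1 (13.7 and 21.1 CPM, 0.65) were lower, and geminin, Gmnn, which blocks relicensing, was the 1 higher gene (69.5 and 44.99 CPM, 1.55, 1.39 to 1.72). Prim1 reached the minimum in the primary library only. Among mitotic genes Cdc20, the activator of the anaphase-promoting complex, was at 10.4 CPM in the chemoresistant and 20.8 CPM in the primary class (0.50, 0.42 to 0.60), the kinase Pbk at 6.33 and 11.5 CPM (0.55), and Cdca8 at 11.5 and 16.5 CPM (0.70). Pbk too reached the minimum in the primary library only. Abundant transcripts of dividing cells did not share a direction: Hmgb2 was lower (76.3 and 146.8 CPM, 0.52), and the histone gene H2afz (533 and 409 CPM, 1.30) and Ran (340 and 264 CPM, 1.29) were not past the limit.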

How the data were processed

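Per the submitters' processing notes, the authors made the deposited UMI count matrices with Cell Ranger 8.0.1 on mouse build mm10. Which annotation they used is not stated in the sources used here. The genes and gene lists were chosen with earlier results of these data known. Barcodes with at least 500 UMIs, 250 genes and at most 20% mitochondrial UMIs were kept, and Scrublet (scanpy 1.11.5) scores marked doublets at 0.8% per 1000 barcodes, because its automatic limit marked 0 chemoresistant and 304 primary barcodes. A cell joined a class with at least 3 of 10 markers detected and a next list of at most 50% as many. Cycling was called on 2000 drawn UMIs, and levels within called cells were taken from the UMIs not drawn, so the call and the level share no count. CPM are UMIs of a gene per 1000000 UMIs of the summed cells. The exact Clopper-Pearson, Poisson and conditional ratio intervals (scipy 1.17.1) were checked on simulated counts. The named genes are all members past 1.5-fold in the whole tumour class and the G2/M members past it in G2/M-positive tumour cells. Also named are the 3 of each list nearest no change, and fixed regulators. S members past 1.5-fold in cycling tumour cells are not all named. Members outside that rule were named after their values were seen where another class is described.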

Additional observations from a re-analysis of the deposited data

Results flagged for a closer look

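The share of cycling cells differed between the libraries in opposite directions in 2 classes. In the draw reported, the ratio, chemoresistant over primary, was 0.69 (0.49 to 0.98) in the tumour class and 1.79 (1.10 to 2.80) in T and NK cells. Averaged over all possible draws, the ratios were 0.78 and 1.57, closer to equal shares in both classes, and no interval was set on them. With another random draw, the tumour shares were 10.4% in the chemoresistant and 11.8% in the primary library. The T and NK shares were then 17.0% and 11.8%. Each class is 1 library against 1 library, and the difference between the 2 ratios was not tested. With Cks2, Smc4 and Kif23 left out of the call the T and NK ratio was 2.88, from shares of 17.9% in the chemoresistant and 6.22% in the primary library.

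In the tumour class, barcodes called as doublets and left out of the comparisons held a larger share of cycling cells than those kept. There 61 of 186 chemoresistant doublet calls (32.8%, 26.1 to 40.05%) and 9 of 38 primary ones (23.7%, 11.4 to 40.2%) were cycling, against 10.1% and 14.6% of the cells kept. Their median depth was 19192.5 UMIs in the chemoresistant and 19198.5 UMIs in the primary library. The interval of the primary tumour calls overlaps that of the cells kept (10.8 to 19.3%). This was not particular to the tumour class. In the primary library doublet calls of every class compared held the larger share, as in mononuclear phagocytes (26.8% against 8.31%) and B-lineage cells (21.7% against 10.1%). The exceptions were chemoresistant: 5 of 54 B-lineage doublet calls (9.26%), 0 of 15 T and NK ones and 0 of 15 neutrophil ones were cycling. Of the cells kept in these classes 12.0%, 22.6% and 17.6% were. With doublet calls kept, the tumour shares were 11.9% and 15.7%.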

How the results depend on the processing

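Leaving out a replicate was not possible with 1 library per group. No paired analysis was possible because each group is a single pooled library and no sample number pairs them. Settings that use another call without Cks2, Smc4 and Kif23, 5000 UMIs with a call at 8, markers at 2 UMIs, the mean over 50 draws and centring on genes of like length were chosen after seeing the data. The lower share of cycling tumour cells kept its direction in the first 3 of these and in the mean over all possible draws. Centring does not enter the share. The cause of each change below was not tested.

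In the whole tumour class the count of lower members, 6 as reported, was 18 with the longest marker list alone, 13 with the mean of CPM over cells, 13 with markers at 2 UMIs, 3 after centring on all genes, 2 with a minimum of 30 CPM, 1 at a 2-fold limit and 2 after centring on like length. The count of higher members was 1 with a minimum of 2 CPM. The G2/M median was -0.89 with the longest list.

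Within G2/M-positive tumour cells the count of lower G2/M members, 2 as reported, was 7 with the longest list, 9 with another draw, 7 with the mean of CPM, 0 at a 2-fold limit, 5 with 5000 UMIs and a call at 8, and 1 with markers at 2 UMIs. The count of higher ones, 5 as reported, was 0 with the longest list, another draw, a 2-fold limit, 5000 UMIs and a call at 8, or the mean over 50 draws, 1 at 1000 UMIs, and 2 with a call at 2 or 5 UMIs, the shorter call or markers at 2 UMIs. The G2/M median, 0.17 as reported, was -0.39 with the longest list, -0.12 at 1000 UMIs, -0.48 with another draw, -0.14 with the mean of CPM, -0.26 with 5000 UMIs and a call at 8, -0.0520 with markers at 2 UMIs and -0.24 over 50 draws. The share of G2/M-positive among cycling tumour cells, 49.5% in the chemoresistant library, was 33.3% with a call at 2 UMIs, 80.8% at 5, 71.4% at 1000 UMIs, 29.3% at 5000 UMIs and 75.2% with 5000 UMIs and a call at 8. For the primary library, 52.4% as reported, it was 88.9% with a call at 5, 35% at 5000 UMIs and 89.5% with 5000 UMIs and a call at 8.

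In S-only tumour cells the count of lower S members, 0 as reported, was 1 with a call at 2, 6 at 5, 2 at 1000 UMIs, 1 at 5000 UMIs, 1 with the mean of CPM and 3 with 5000 UMIs and a call at 8. The count of higher ones, 12 as reported, was 7 with a call at 2, 1 at 5, 5 at 1000 UMIs, 2 at 5000 UMIs, 3 with another draw, 4 with 5000 UMIs and a call at 8, and 6 over 50 draws. The S median, 1.03 as reported, was -0.35 with a call at 5, 0.10 at 5000 UMIs, -0.00989 with another draw and 0.0736 with 5000 UMIs and a call at 8.

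The cycling share ratio in B-lineage cells, 1.19 as reported, was 0.78 with a call at 5 and 0.33 at 1000 UMIs. In T and NK cells, 1.79 as reported, it was 3.46 with a call at 5 and 2.88 with the shorter call. In mononuclear phagocytes, 1.11 as reported, it was 0.87 at 1000 UMIs and 0.93 with another draw. In dendritic cells, 0.76 as reported, it was 2.51 with 5000 UMIs and a call at 8.

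Single members that changed sign among those called, as log2 ratios, were Top2a (-0.42 longest list, -0.0743 another draw, -0.0334 markers at 2 UMIs), Kif11 (-0.74, -0.17 and -0.27 under the same settings), Ccnb1 (-0.22) and Aurka (-0.22) with another draw and Nusap1 (-0.0479, mean of CPM), all in G2/M-positive tumour cells. In S-only tumour cells they were Pcna (-0.93 call at 5, -0.19 at 5000 UMIs, -0.00989 another draw), Mcm3 (-0.35 call at 5), Mcm7 (-0.76 call at 5, -0.18 mean of CPM), Hells (-1.13 call at 5, -0.17 at 1000, -0.19 at 5000, -0.0411 another draw, -0.12 with 5000 and 8), Tipin (-0.80 call at 5, -0.35 at 1000, -0.45 another draw, -0.81 with 5000 and 8), Chaf1b (-0.0265 call at 5, -0.0576 another draw), Tyms (-1.18 call at 5, -0.74 at 1000), Mcm2 (-0.40 another draw, -0.53 mean of CPM, -0.14 with 5000 and 8) and Rfc2 (-0.34 with 5000 and 8). The primary tumour class, with 287 called cells, limits every within-cell level in that class.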

Other observations

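Some tumour-class barcodes were nearly free of mitochondrial RNA. In the chemoresistant library 30 of the 104 G2/M-positive cells (28.8%) and 21 of the 106 S-only cells (19.8%) had under 1% mitochondrial UMIs, against 14.8% of the class. In the primary library 4 of the 22 G2/M-positive cells (18.2%) and 8 of the 20 S-only cells did, against 15.9% of the class. Without such barcodes the cycling share was 8.74% in the chemoresistant and 12.2% in the primary tumour class.

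In T and NK cells the S members Pcna (130 and 75.4 CPM, ratio 1.73, 1.31 to 2.24) and Dut (109 and 71.1 CPM, 1.54) were higher in the chemoresistant library. Dut, which keeps uracil out of DNA, was also higher there in neutrophils (33.6 and 12.98 CPM, 2.59), dendritic cells (33.9 and 18.4 CPM, 1.84) and fibroblasts (113 and 50.1 CPM, 2.26). In fibroblasts Tyms, which makes thymidylate, was at 22.0 CPM in the chemoresistant and 42.2 CPM in the primary library (0.52, 0.38 to 0.72).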
